A study of Mus musculus with 8 samples.

Results

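The interferon regulatory factor (IRF) genes examined here are Irf1, Irf2, Irf3, Irf4, Irf5, Irf7, Irf8 and Irf9, chosen by name as 8 of the 24972 genes in the deposited expression table. RNA sequencing measured their transcripts in untreated primary mouse embryonic fibroblasts, cultures of connective tissue cells grown from embryos at embryonic day 14 and used after 2 passages. The 8 libraries came from 4 genotypes with 2 libraries each. These were wild type (WT), Tfam+/- (1 allele of the mitochondrial DNA packaging gene Tfam lost), Zbp1-/- (both alleles lost of Zbp1, which encodes a sensor of nucleic acids in the Z conformation) and Tfam+/-Zbp1-/- (both changes in the same cells). No group received an agent, and all were grown in the same medium with serum. The genotypes let the effect of losing 1 Tfam allele be read with and without Zbp1. Of the 8 Irf genes, 7 had a mean of at least 10 normalized counts and were tested, and Irf4 did not. No source used here says whether replicate libraries were made from different embryos, so each p-value measures only the spread between these samples, which may be technical.

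IRF proteins are transcription factors that share a DNA-binding domain and recognise repeats of the letters GAAA. Irf3 and Irf7 are switched on by phosphorylation downstream of nucleic acid sensors and drive the interferon genes. Irf9 joins STAT2 in the complex ISGF3, through which type I interferon turns on its target genes, Irf7 among them. Irf1 is an activator induced by interferon gamma and inflammatory signals, and Irf2 binds the same sites and often opposes it. Irf5 acts in inflammatory gene expression, and Irf8 and Irf4 are best known from myeloid cells and lymphocytes.

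The start regions of the Irf genes were searched for sequence elements through which interferon acts. RefSeq windows of 300 bases (250 before the transcript start and 50 after it, GRCm38.p6, the assembly also called mm10) were available for all 8 genes, 11 windows in all. The search, on either strand, was for GAAA followed by any 2 bases and a second GAAA, the core of the interferon-stimulated response element bound by IRF proteins and ISGF3, and for TTCNNNGAA, the gamma-activated site. Capitals mark the matches, and all of these lie on the plus strand of the genome. Irf2 (chr8:46739495-46739555) held 1 match to each motif, Irf8 (chr8:120736162-120736239) held 2 matches to the second, and Irf1 (chr11:53769899-53769958) held 1 match to the second. They are shown with the Irf7 sequence (chr7:141266500-141266674, minus strand), which belongs to the gene with the largest change and had no match.
Irf2: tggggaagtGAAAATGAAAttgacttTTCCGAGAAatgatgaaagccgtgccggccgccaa
Irf8: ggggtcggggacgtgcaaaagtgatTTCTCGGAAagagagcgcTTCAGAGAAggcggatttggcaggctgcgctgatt
Irf1: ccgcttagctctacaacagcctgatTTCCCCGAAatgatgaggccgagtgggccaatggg
Irf7: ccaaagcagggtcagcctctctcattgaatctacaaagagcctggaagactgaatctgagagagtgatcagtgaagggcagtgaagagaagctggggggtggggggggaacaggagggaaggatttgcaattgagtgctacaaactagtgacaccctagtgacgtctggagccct
In Irf2 the matches began at positions -241 and -224 relative to the transcript start, in Irf8 at -171 and -153, and in Irf1 at -90. The first motif was present in 3.44% of all 32851 windows and the second in 8.3%. The windows of Irf3, Irf4, Irf5, Irf7 and Irf9 held neither motif, which says only that these letters are not in these windows. The first Irf9 window lay inside an exon of the GENCODE M21 gene model, which starts further upstream, and it is not shown. The second Irf9 window and the only Irf5 window (chr6:29526375-29526674) also lay inside their genes. The outermost annotated starts of Irf5 and Irf9 were thus not searched. Part of the Irf7 window lay inside the gene too, and only its bases before every annotated start are shown.

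The targeted genes and the libraries were checked first. Tfam was at 278 to 424 normalized counts in the 4 libraries with 1 Tfam allele lost and at 471 to 675 in the other 4. Zbp1 was at 3.19 and 7.34 in WT, too low to check the Zbp1-/- label, and at 64.6 and 69.8 in Tfam+/- against 0.862 and 2.69 in Tfam+/-Zbp1-/-. All 12 fibroblast markers were measured, with a summed level of 510880 to 751210. All 18 markers of macrophages and other myeloid cells were also present, with a summed level of 3344 to 8902. Of the 11 lymphocyte markers 8 were at 0 in all libraries, as were 3 of the 7 dendritic cell markers (Siglech, Xcr1 and Clec9a). Of the other 4, Zbtb46 was at 22.5 to 48.7, Flt3 and Itgax were at most 2.72, and Bst2, also an interferon target gene, was at 276 in both WT libraries, 2357 and 1752 in Tfam+/- and 358 to 472 in the 4 libraries without Zbp1. Tfam+/- replicate 1 and Zbp1-/- replicate 2 stood apart from the other library of their genotype in the same genes: across genes, replicate 1 less replicate 2 of Tfam+/- correlated with that of Zbp1-/- at r = -0.698. This r alone does not tell which library of each genotype is the one apart, since Tfam+/- replicate 2 and Zbp1-/- replicate 1 would give the same value. Results for the Irf genes are therefore given with all 8 libraries, with a term shared by Tfam+/- replicate 1 and Zbp1-/- replicate 2, and from the other 6. The 2 libraries were picked from these same values. The term, or leaving them out, removes the spread they were picked for, so adjusted p-values there are small partly by construction. The labels give no batch, and in the 6 libraries the lone Tfam+/- and Zbp1-/- libraries are assumed to vary like the other genotypes.

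Per kilobase of exon, the most abundant member in WT was Irf3, with a mean of 236 normalized counts per kilobase. Irf1 followed at 126, Irf9 at 122, Irf2 at 94.5, Irf5 at 26.5, Irf7 at 15.4, Irf8 at 11.6 and Irf4 at 0.299. The WT libraries of Irf1 (123 and 130) and Irf9 (124 and 119) overlapped, as did those of Irf7 (12.1 and 18.7) and Irf8 (10.6 and 12.5), so these neighbours in the order were not separated, whereas the other neighbouring pairs did not overlap. In Tfam+/- the order changed: Irf9 came first at 339, Irf3 had 289, Irf1 had 177 and Irf7 had 172. Here the libraries of Irf9 (328 and 351) and Irf3 (337 and 242) overlapped, as did those of Irf1 (200 and 154) and Irf7 (198 and 145). In Zbp1-/- the order was that of WT, from Irf3 at 304, Irf1 at 190, Irf9 at 146 and Irf2 at 106 to Irf5 at 36.1, Irf7 at 26.1 and Irf8 at 8.09, with no overlap between neighbours. The double genotype had Irf3 at 266, Irf9 at 178, Irf1 at 172.5, Irf2 at 102, Irf7 at 31.3, Irf5 at 23.9 and Irf8 at 8.09, and only the libraries of Irf9 and Irf1 overlapped among neighbours. Irf7 made up 2.44% of the summed level per kilobase of the 8 genes in WT and 15.0% in Tfam+/-. In Zbp1-/- and Tfam+/-Zbp1-/- its share was 3.2% and 4.0%.

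**Figure D1:**
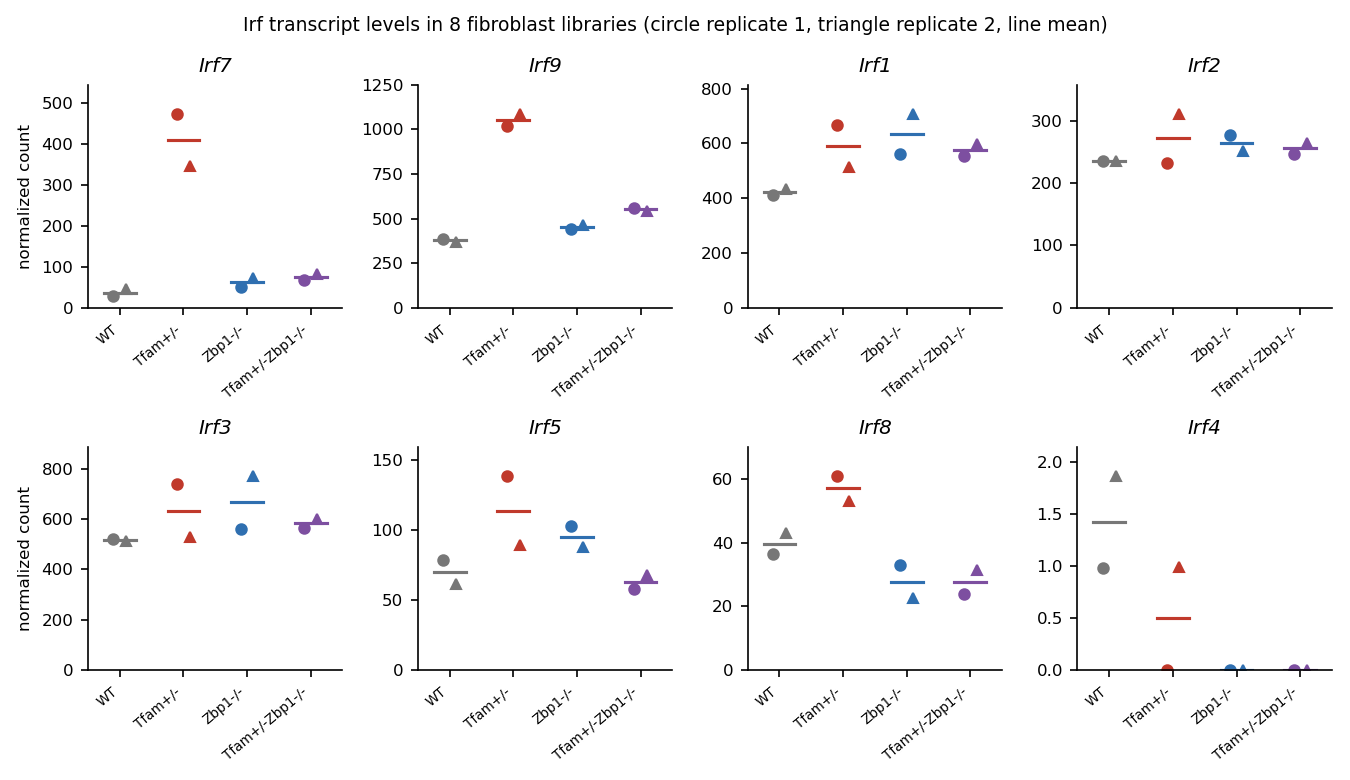
Normalized count (vertical axis, linear, from 0, with its own range in each panel) of each Irf gene in the 8 libraries, by genotype; circles are replicate 1, triangles replicate 2 and lines the mean. The Tfam+/- libraries of Irf7 (347 and 475) and Irf9 (1016 and 1088) lie above the other 6 libraries of the same gene.

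Irf7, which amplifies the interferon response, showed the largest change of the family. It lies on chromosome 7 (141263183 to 141266499, minus strand). Its normalized counts were 29.0 and 44.9 for WT, 475 and 347 for Tfam+/-, 51.7 and 73.2 for Zbp1-/- and 67.3 and 82.3 for Tfam+/-Zbp1-/-. Both Tfam+/- libraries stood above the other 6, which 4.73% of the genes tested also did, and the other 3 genotypes spanned 29.0 to 82.3. The mean was 36.9 ± 11.2 (SD, n = 2) for WT and 411 ± 90.5 for Tfam+/-, beside 62.5 ± 15.2 for Zbp1-/- and 74.8 ± 10.6 for the double genotype. Irf7 rose in Tfam+/- against WT by a log2 change of 3.46 ± 0.29 (SE), 10.98-fold on the scale of log2(normalized count + 1), with a limma adjusted p of 0.0051. It was lower in Tfam+/-Zbp1-/- than in Tfam+/- by a log2 change of -2.43 ± 0.29 (limma, adjusted p 0.0064). Against Zbp1-/-, the same double genotype gave 0.27 ± 0.29 (limma, adjusted p 0.67), which did not pass the threshold of 0.05.

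Irf9, the DNA-binding subunit of ISGF3, moved in the same genotypes by a smaller amount and with closer replicates. It lies on chromosome 14 (55603985 to 55610030, plus strand). Its normalized counts were 385 and 369 for WT, 1016 and 1088 for Tfam+/-, 443 and 463 for Zbp1-/- and 560 and 544 for Tfam+/-Zbp1-/-. No genotype overlapped another, which was not counted over all genes. Taken in pairs, 23.3% of all genes lay above WT without overlap in Tfam+/- and 42.1% in Zbp1-/-. Both Tfam+/- libraries stood above the other 6, as for 4.73% of the genes tested. The order from low to high was WT, Zbp1-/-, Tfam+/-Zbp1-/- and Tfam+/-. The means were 377 ± 11.4 (SD, n = 2), 453 ± 14.4, 552 ± 11.5 and 1052 ± 50.9 in that order. Irf9 rose in Tfam+/- against WT by 1.48 ± 0.10 (log2, limma, adjusted p 0.0031), a 2.78-fold change. It fell in Tfam+/-Zbp1-/- against Tfam+/- by a log2 change of -0.93 ± 0.10 (limma, adjusted p 0.0053). Its excess over WT in the double genotype, 0.55 ± 0.10, missed the threshold (limma, adjusted p 0.065).

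In Tfam+/- against WT these were the 2 Irf genes called of 7 tested, both higher, where 0.731% of the 13267 genes tested were called and 0.565% were called higher. The share of members called, 2 of 7, exceeded that background. All 7 had a change above 0, with a median of 0.51 beside -0.01 over all genes tested, and 6 had Tfam+/- libraries that did not overlap WT and lay above it, against 23.3% of genes. Without WT replicate 1, which leaves a lone WT library assumed to vary like the other groups, Irf7 was at 3.15 and Irf9 at 1.51 and neither was called (limma, adjusted p 0.060 for each). Without WT replicate 2, Irf9 was at 1.45 and lost its call (limma, adjusted p 0.062). With the shared term Irf7 was at 3.22 ± 0.21 and Irf9 at 1.48 ± 0.07 (limma, adjusted p 1.3e-09 and 1.9e-11). The fit with this term called 981 of the 13267 genes tested higher, the direction of all members it called. The shares that follow count either direction. That fit called 4 of 7 members and 15.6% of all genes, and the fit to the other 6 libraries called the same 4 and 15.4%.

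**Figure D2:**
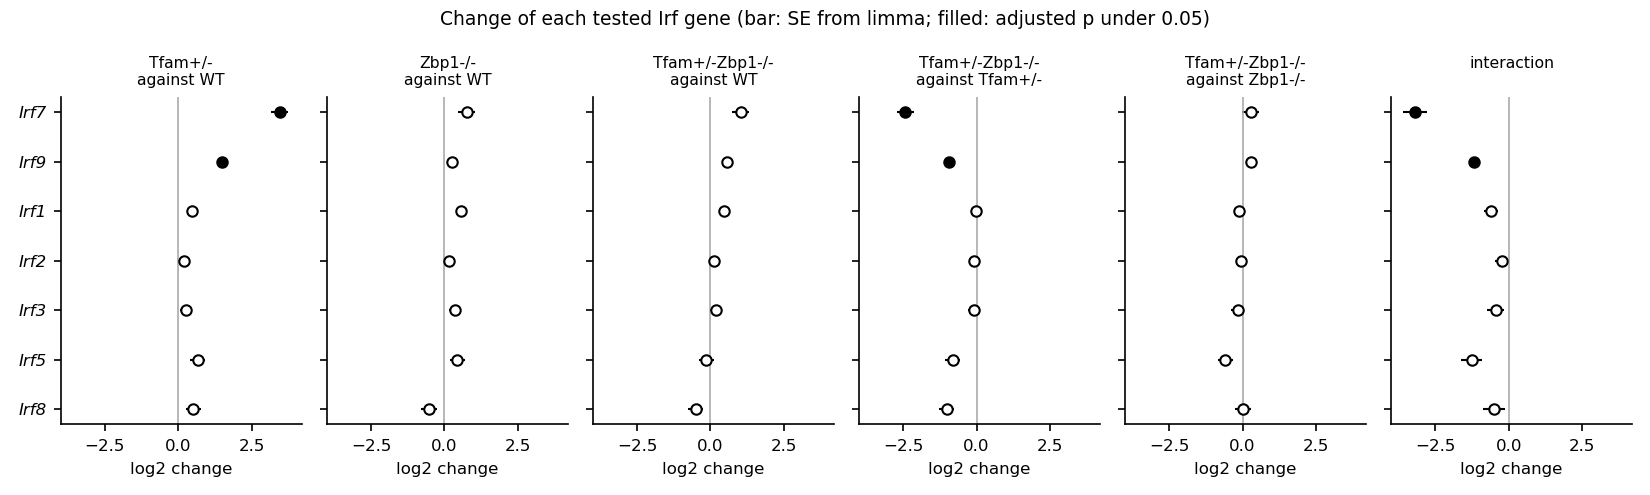
Log2 change (horizontal axis, same range in each panel) of the 7 tested Irf genes in 5 comparisons and the interaction, with the SE from limma as a bar and filled points for an adjusted p under 0.05. Filled points belong to Irf7 and Irf9, in Tfam+/- against WT, in Tfam+/-Zbp1-/- against Tfam+/- and in the interaction.

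Irf1 and Irf3 had no called change with all 8 libraries, and their highest value within Tfam+/- and within Zbp1-/- fell in the same 2 libraries. Irf1 (chromosome 11, 53770014 to 53778374, plus strand) had normalized counts of 410 and 434 for WT, 669 and 514 for Tfam+/-, 560 and 709 for Zbp1-/- and 554 and 597 for Tfam+/-Zbp1-/-. All 6 mutant libraries lay above both WT libraries, and the 3 mutant genotypes overlapped. Of all genes, 23.3% in Tfam+/- and 42.1% in Zbp1-/- also lay above WT without overlap. The limma changes against WT were 0.47 ± 0.17 in Tfam+/- (adjusted p 0.49), 0.58 ± 0.17 in Zbp1-/- (adjusted p 0.17) and 0.45 ± 0.17 in Tfam+/-Zbp1-/- (adjusted p 0.35), and none was called. Once the shared term was in the fit, the same values were 0.29 ± 0.07, 0.40 ± 0.07 and 0.45 ± 0.06, and each was called (limma, adjusted p 0.0079, 2.8e-04 and 2.3e-05), where 15.6%, 35.6% and 42.5% of all genes were. The fit to the other 6 libraries called all 3 as well. These comparisons share the WT libraries.

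Irf3, the family member that responds first to sensors without being induced itself, lies on chromosome 7 (44997648 to 45002848, plus strand). Its normalized counts were 520 and 514 for WT, 737 and 529 for Tfam+/-, 560 and 771 for Zbp1-/- and 566 and 600 for Tfam+/-Zbp1-/-. The high values, 737 and 771, were those of Tfam+/- replicate 1 and Zbp1-/- replicate 2, the libraries that stand apart. No Irf3 change was called with all libraries. The change in Tfam+/- was 0.27 ± 0.21 (limma, adjusted p 0.56) and became 0.04 ± 0.07 with the shared term. The change in Zbp1-/- was 0.35 ± 0.21 (limma, adjusted p 0.37) and became 0.11 ± 0.07. The double genotype was at 0.17 with or without the term, and was called with it (limma, adjusted p 0.025), where 42.5% of all genes were.

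Irf2 (chromosome 8, 46739745 to 46847458, plus strand) had group means between 236 and 272 normalized counts. Its normalized counts were 236 and 236 for WT, 233 and 312 for Tfam+/-, 278 and 251 for Zbp1-/- and 247 and 264 for Tfam+/-Zbp1-/-. Only the Tfam+/- libraries overlapped WT. Those of Zbp1-/- and Tfam+/-Zbp1-/- lay above it, as did 42.1% of all genes in Zbp1-/-. The largest limma change against WT was 0.19 ± 0.16 (adjusted p 0.58), in Tfam+/-. It was 0.33 ± 0.11 and called with the shared term (limma, adjusted p 0.039), but -0.02 without Tfam+/- replicate 2, so its direction rests on 1 library.

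**Figure D3:**
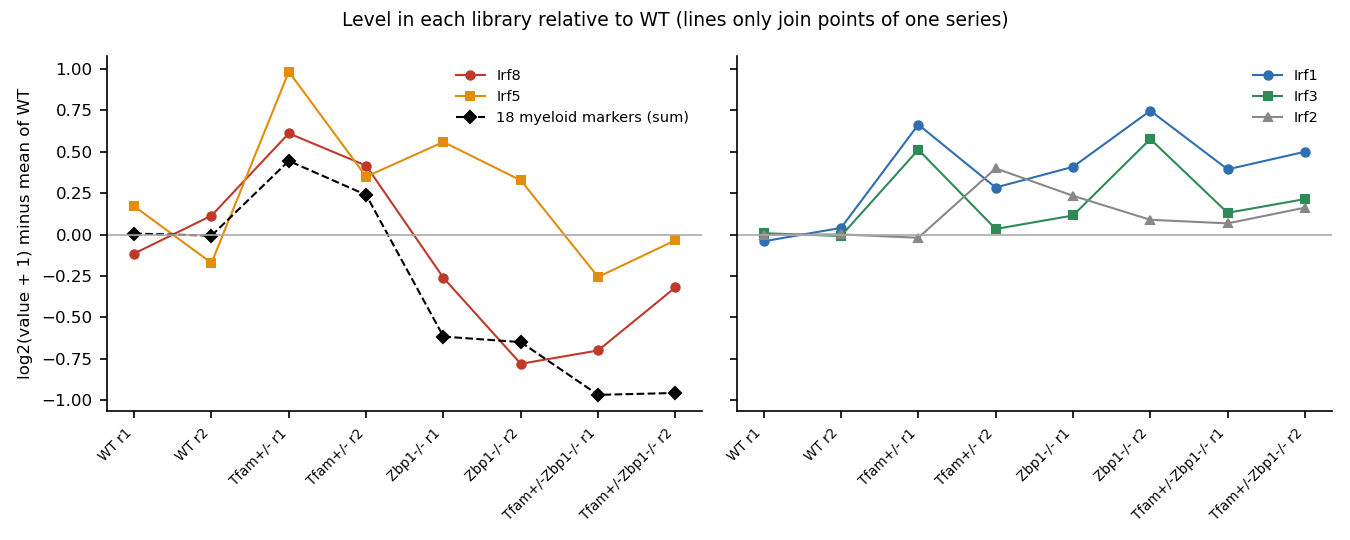
Level in each library relative to the WT mean (vertical axis, log2(value + 1)), with Irf5, Irf8 and the summed level of 18 myeloid markers on the left and Irf1, Irf2 and Irf3 on the right; lines only join points of 1 series. Irf8 and the myeloid sum are above WT in both Tfam+/- libraries and below it in the 4 libraries without Zbp1, and Irf1 and Irf3 peak in Tfam+/- replicate 1 and Zbp1-/- replicate 2.

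Irf8, best known from myeloid cells and lymphocytes, and Irf5 were low. Among the 5 comparisons the largest change of each was between the genotypes with 1 Tfam allele. Irf8 (chromosome 8, 120736358 to 120756694, plus strand) had normalized counts of 36.5 and 43.0 for WT, 61.1 and 53.2 for Tfam+/-, 32.9 and 22.7 for Zbp1-/- and 24.0 and 31.6 for Tfam+/-Zbp1-/-. All 4 libraries without Zbp1 lay below WT, and both Tfam+/- libraries lay above it. Of all genes, 16.8% were also lower than WT without overlap in Zbp1-/-, and 23.3% higher in Tfam+/-. The change in Tfam+/-Zbp1-/- against Tfam+/- was -1.02 ± 0.26 and missed the threshold (limma, adjusted p 0.076). It was called with the shared term, at -1.10 ± 0.29 (limma, adjusted p 0.0044), and in the other 6 libraries, at -0.93 ± 0.30 (limma, adjusted p 0.018), where 45.6% and 43.6% of all genes were called.

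Irf5 (chromosome 6, 29526130 to 29541869, plus strand) had normalized counts of 78.6 and 61.8 for WT, 139 and 89.1 for Tfam+/-, 103 and 87.7 for Zbp1-/- and 58.2 and 68.0 for Tfam+/-Zbp1-/-. The highest library was Tfam+/- replicate 1, and the double genotype lay below Tfam+/- and Zbp1-/- and overlapped WT. Of all genes, 13.5% were also lower than Tfam+/- without overlap, and the share against Zbp1-/- is not given here. Irf5 lay above WT without overlap in Tfam+/- and in Zbp1-/-, as did 23.3% and 42.1% of all genes. Its change in Tfam+/-Zbp1-/- against Tfam+/- was -0.81 ± 0.25 (limma, adjusted p 0.13), called with the shared term at -0.71 ± 0.22 (limma, adjusted p 0.013) and not in the other 6 libraries (-0.49 ± 0.21, limma, adjusted p 0.073). Irf5 shares 1043 bases with Tnpo3 on the opposite strand, which had 2112 to 2469 normalized counts. Use of strand in counting is not given, so reads of the shared stretch cannot be assigned with certainty.

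The summed level of the myeloid markers, like Irf8, was highest in the Tfam+/- libraries, and none of the 18 was at 0 in any library. The sum was 6567 and 6512 for WT, 8902 and 7721 for Tfam+/-, 4267 and 4170 for Zbp1-/- and 3344 and 3371 for Tfam+/-Zbp1-/-. Unlike Irf8, Irf5 was above WT in Zbp1-/-, where the sum was below it. Both Tfam+/- libraries were also highest for the summed endothelial (407 and 474), skeletal muscle (1757 and 1238), dendritic cell and, near 0, lymphocyte markers. They were not for the fibroblast, epithelial and erythroid markers. Single myeloid markers did not all follow their sum: Cd14 was at 127 and 119 in Tfam+/- and at 125 and 150 in Zbp1-/-. In Tfam+/- replicate 1, Ptprc was at 96.6 and Mrc1 at 270, below both WT libraries (145 and 139, and 347 and 374). Of the 18, 14 were called lower in Tfam+/-Zbp1-/- against Tfam+/- (limma), beside 2.32% of all genes, with a median log2 change of -1.32, and 0 were called without either Tfam+/-Zbp1-/- library. In Tfam+/- against WT 0 of the 18 were called (limma). Of the 18 changes there, 16 were above 0, with a median of 0.43 beside -0.01 over all genes tested. Among them, Lyz2, a lysozyme of macrophages, was at 2855 and 2844 in WT and at 1393 and 1375 in Tfam+/-Zbp1-/-. The part of myeloid cells in the Irf8 and Irf5 differences was not tested. In bulk RNA, fewer cells of a type and less RNA per cell cannot be told apart.

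Irf4 (chromosome 13, 30749233 to 30766981, plus strand) was near 0 throughout. It had 0.981 and 1.87 normalized counts in WT, 0 and 0.993 in Tfam+/-, and 0 in the 4 libraries without Zbp1. The most repeated low value of a library, taken as 1 read, was 0.932 to 1.10, so these values are of 1 or 2 reads and no fold change is given.

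No Irf gene was called after loss of Zbp1 alone. In Zbp1-/- against WT limma called 0 of 7 members, where 1.06% of all genes were called. At an unadjusted p under 0.05 (limma) were 3 members, Irf1, Irf7 and Irf9, beside 2619 of the 13267 genes tested. Irf7 was at 0.76 ± 0.29 (limma, adjusted p 0.23), Irf9 at 0.26 ± 0.10 (limma, adjusted p 0.23) and Irf8 at -0.52 ± 0.26 (limma, adjusted p 0.31). The libraries did not overlap for any of the 7, with 6 higher and Irf8 lower, but 42.1% of all genes were higher and 16.8% lower without overlap. With the shared term Irf1, Irf2 and Irf9 were called, where 35.6% of all genes were, and in the other 6 libraries Irf1 and Irf9, where 34.3% were. The share of members called in these fits was near that background.

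No Irf gene was called between the double genotype and WT either. Against WT limma called 0 of 7 members, where 1.38% of all genes were called. At an unadjusted p under 0.05 (limma) were 3 members, Irf1, Irf7 and Irf9, beside 1674 of the 13267 genes tested. Irf7 was at 1.02 ± 0.29 (limma, adjusted p 0.19), or 74.8 normalized counts beside 36.9 in WT. With the shared term Irf1, Irf3, Irf7 and Irf9 were called, Irf7 with a limma adjusted p of 2.5e-04 and Irf9 with 1.9e-06, and the other 6 libraries gave the same 4, beside 42.5% and 44.8% of all genes, so that 4 of 7 was not far from the background. A fit of only these genotypes also called 4 members, beside 44.7% of all genes, and one with crossed replicate numbers called 4 beside 46.8%. Against Zbp1-/-, limma called 0 of 7, where 0.415% of all genes were called. Irf9 (0.28 ± 0.10, limma, adjusted p 0.34) was the 1 member at an unadjusted p under 0.05, beside 1626 of the 13267 genes tested. The shared term fit called Irf9 alone, at 0.28 ± 0.07 (limma, adjusted p 0.0077), where 23.8% of genes were, and in the other 6 libraries Irf9 and Irf5 were, where 23.4% were.

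In Tfam+/-Zbp1-/- against Tfam+/-, 2 of 7 members were called, Irf7 and Irf9, both lower, where 5.64% of all genes were called and 2.32% were called lower. All 7 changes were below 0, with a median of -0.81 beside 0.14 over all genes tested. Irf5, Irf7, Irf8 and Irf9 were lower without overlap, against 13.5% of genes. Irf1 (-0.03), Irf2 (-0.08) and Irf3 (-0.10) were close to 0, and with the shared term Irf1 and Irf3 were at 0.15 and 0.13. The fit with this term called 1350 of the 13267 genes tested lower, the direction of all members it called. The shares that follow count either direction. Irf5, Irf7, Irf8 and Irf9 were called with the shared term, beside 45.6% of all genes, and Irf2, Irf7, Irf8 and Irf9 in the other 6 libraries, beside 43.6%. The calls of Irf7 and Irf9 were lost without Tfam+/-Zbp1-/- replicate 1 (-2.29 and -0.95, limma, adjusted p 0.083 and 0.082) or replicate 2 (-2.57 and -0.91, limma, adjusted p 0.068 and 0.078).

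The interaction tested whether losing 1 Tfam allele had the same effect with and without Zbp1, as the double genotype less Zbp1-/- minus Tfam+/- less WT. Irf7 had an interaction of -3.19 ± 0.41 (limma, adjusted p 0.033) and Irf9 of -1.19 ± 0.15 (limma, adjusted p 0.030). They were 2 of 7 members called, both below 0, where 0.663% of all genes were called and 0.445% were below 0. In log2 units, the Irf7 change with 1 Tfam allele lost was 3.46 with Zbp1 and 0.27 without it, and that of Irf9 was 1.48 and 0.28. The other 5 members had interactions from -1.25 (Irf5, adjusted p 0.21) to -0.24 (Irf2, adjusted p 0.51) in limma, and none was called.

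The interaction calls rested on few libraries. Neither Irf7 (-3.49 to -2.88) nor Irf9 (-1.24 to -1.14) changed direction when any 1 library was left out. Both lost their calls without either WT library, either Tfam+/-Zbp1-/- library, Tfam+/- replicate 1 or Zbp1-/- replicate 2, and Irf9 also without Zbp1-/- replicate 1, with limma adjusted p up to 0.27. In the shared term fit, which here rests on the other 6 libraries, Irf7 was at -2.71 ± 0.32 and Irf9 at -1.21 ± 0.11 (limma, adjusted p 5.9e-06 and 2.3e-07), Irf2 and Irf5 were called too, and 16.9% of all genes were, or 19.1% in the other 6 libraries, which called the same 4 members. These shares count either direction. The shared term fit called 1118 of the 13267 genes tested below 0, the direction of all members it called. With the replicate number as a block, neither Irf7 nor Irf9 was called (limma, adjusted p 0.11 for Irf7 and 0.15 for Irf9).

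Genes around the IRF proteins were then read from pathway lists, ordered from sensing to target. Among 20 tested kinases, sensors and adaptors that act upstream of IRF activation, 2 were higher in Tfam+/- than in WT (limma). They were Dhx58, which encodes the RNA sensor LGP2, at 2.56 ± 0.25 (adjusted p 0.010), and Ddx58, which encodes the RNA sensor RIG-I, at 1.33 ± 0.15 (adjusted p 0.016). The list's median was 0.15 beside -0.01 for all genes, of which 0.565% were called higher. With the replicate block, or without either WT library, 0 of the 20 were called, and 1 was in the fit of only these genotypes or without Tfam+/- replicate 1 or either Tfam+/-Zbp1-/- library. Called lower in Tfam+/-Zbp1-/- against Tfam+/- were 3 of the 20, these 2 and the sensor gene Ifih1, the last named after its values were seen, beside 2.32% of all genes. That count was 0 without either Tfam+/-Zbp1-/- library and 1 with the replicate block or without either WT library.

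The interferon genes themselves, which Irf3 and Irf7 can switch on, were at or near 0. Of the 21 type I, II and III interferon genes examined, 17 were listed at 0 in all 8 libraries, Ifnb1 and Ifng included. Ifna4 had 1.1 normalized counts in Tfam+/- replicate 1 alone, Ifna15 had 1.89 in Tfam+/-Zbp1-/- replicate 1 alone and Ifne had 0.98 and 1.86 in WT alone. Ifnz was above 0 in 7 libraries, with at most 3.71. These 4 were named after their values were seen. None of the 21 reached the level needed for a test.

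Among the tested genes for interferon receptor subunits, kinases and STAT proteins, Stat2, which encodes a partner of Irf9, was higher in Tfam+/-. Stat2 had normalized counts of 648 and 613 for WT, 2198 and 1877 for Tfam+/-, 809 and 949 for Zbp1-/- and 881 and 850 for Tfam+/-Zbp1-/-. Both Tfam+/- libraries stood above the other 6, which 4.73% of the genes tested also did. Stat2 rose in Tfam+/- against WT by 1.69 ± 0.13 (log2, limma, adjusted p 0.0034), beside 1.48 ± 0.10 for Irf9. Its interaction was called (-1.70 ± 0.18, limma, adjusted p 0.020). In the double genotype against Tfam+/- Stat2 was called lower (-1.23 ± 0.13, limma, adjusted p 0.0045), and the receptor subunit gene Ifnar1, named after its values were seen, was called higher (0.65 ± 0.12, limma, adjusted p 0.030). Stat2 lost its call in Tfam+/- against WT without either WT library (1.73 and 1.65, limma, adjusted p 0.066 and 0.072), and in the double genotype against Tfam+/- without either Tfam+/-Zbp1-/- library (-1.26 and -1.20, limma, adjusted p 0.070 and 0.068). Its interaction was not called with the replicate block (limma, adjusted p 0.11), nor without either WT library, either Tfam+/-Zbp1-/- library or Zbp1-/- replicate 2 (-1.74 to -1.59, limma, adjusted p 0.062 to 0.22). The Ifnar1 call was lost with the replicate block (limma, adjusted p 0.096), with the trimmed mean scaling (0.51, limma, adjusted p 0.061), in the fit of only these genotypes (limma, adjusted p 0.12) and without either WT library, Tfam+/- replicate 1 or either Tfam+/-Zbp1-/- library (0.52 to 0.68, limma, adjusted p 0.083 to 0.25).

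Of 12 tested DNA-binding partners and cofactors of IRF proteins limma called 0 in Tfam+/- against WT. At an unadjusted p under 0.05 (limma) was 1 of them, beside 1159 of the 13267 genes tested. Spi1, which encodes PU.1, the partner of Irf8 and Irf4 on DNA and also among the myeloid markers above, had normalized counts of 49.6 and 38.2 for WT, 78.1 and 65.4 for Tfam+/-, 43.3 and 36.9 for Zbp1-/- and 20.7 and 26.3 for Tfam+/-Zbp1-/-. It was at 0.70 ± 0.23 in Tfam+/- against WT (limma, adjusted p 0.44). It was lower in Tfam+/-Zbp1-/- than in Tfam+/- by a log2 change of -1.57 ± 0.23 (limma, adjusted p 0.013), the same genotypes as for Irf8. That call was lost without Tfam+/- replicate 1 (-1.45) or either Tfam+/-Zbp1-/- library (-1.41 and -1.74), with limma adjusted p of 0.059 to 0.13. Kat2b, an acetyltransferase, was at -0.25 ± 0.24 in Tfam+/- against WT (limma, adjusted p 0.60).

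Genes that restrain IRF and interferon signalling were called higher in 4 of 17 cases in Tfam+/- against WT (limma), beside 0.565% of all genes, with a list median of 0.25. Usp18, which encodes a protease that removes ISG15 and blocks the interferon receptor, had 26.4 and 21.3 normalized counts in WT and 761 and 625 in Tfam+/-, a log2 change of 4.81 ± 0.21 (limma, adjusted p 8.0e-04). Trim30a was at 2.70 ± 0.28, Nlrc5, which regulates MHC class I genes, at 1.76 ± 0.16, and Trim21, a ubiquitin ligase, at 1.05 ± 0.15. All 4 were also called lower in Tfam+/-Zbp1-/- against Tfam+/-, with Tnfaip3 as the fifth, named after its values were seen. The count of 4 fell to 2 with the replicate block and to 1 in the fit of only these genotypes or without either WT library, and the count of 5 fell to 1 without either Tfam+/-Zbp1-/- library and to 3 with the replicate block, in the fit of only these genotypes or without either WT library or Tfam+/- replicate 2. Usp18 kept its call in Tfam+/- against WT under every alternative tried.

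Of 22 target genes that carry interferon response elements all were tested, and 18 were called higher in Tfam+/- against WT (limma), beside 0.565% of all genes, with 22 of 22 above 0 and a median log2 change of 2.87. Isg15, a ubiquitin-like modifier, was at 4.33 ± 0.25, Oasl2 at 4.10 ± 0.25, Ifi44 at 3.51 ± 0.38 and Oas1a, which makes the activator of the nuclease RNase L, at 3.45 ± 0.19. The count of 18 fell to 5 without either WT library, to 12 without Tfam+/-Zbp1-/- replicate 2 or in the fit of only these genotypes, and to 11 with the replicate block. Isg15, Oasl2 and Oas1a kept their calls under every alternative tried. Ifi44 lost its call without either WT library (3.39 and 3.63) or either Tfam+/-Zbp1-/- library (3.51 for each). It also lost it with the replicate block (limma, adjusted p 0.056) and in the fit of only these genotypes (limma, adjusted p 0.055). When Tfam+/-Zbp1-/- was compared with Tfam+/-, 15 were called lower, beside 2.32% of all genes, and 1 of 22 was above 0, with a median of -2.04. Without either Tfam+/-Zbp1-/- library 1 was called lower. Compared with WT, the double genotype had 22 of 22 above 0, with a median of 0.77 and 2 called, Ccl5 (2.26 ± 0.38, limma, adjusted p 0.049) and Ifit3 (0.85 ± 0.14, limma, adjusted p 0.043), named after their values were seen, beside 1.38% of all genes. Neither was called with no filter, with the trimmed mean scaling, with the replicate block, or without any 1 WT, Zbp1-/- or Tfam+/-Zbp1-/- library, and 13 of the 22 were in the fit of only these genotypes, beside 44.7% of all genes. Against Zbp1-/- limma called 0 with all 8 libraries, with 15 of 22 above 0 and a median of 0.56. At an unadjusted p under 0.05 (limma) were 12 of the 22, beside 1626 of the 13267 genes tested. With the shared term 9 were called higher and 2 lower there, beside 1696 and 1459 of all genes tested. That fit called 16 of the 22 higher in the double genotype against WT, beside 4680 of all genes tested. It called 18 below 0 in the interaction, beside 1118, and its adjusted p-values are small partly by construction. The 4 target genes not called in Tfam+/- against WT, named after their values were seen, were B2m (0.21), Ifit2 (0.29), Psmb9 (1.37) and Mx1 (3.44). Ifit2 was also the gene above 0 in Tfam+/-Zbp1-/- against Tfam+/-. With all 8 libraries 10 were called in the interaction, all below 0, beside 0.445% of all genes, with a median of -2.29. That count was 0 with the replicate block, without either WT library, without either Tfam+/-Zbp1-/- library and without Zbp1-/- replicate 2, and 6 without Zbp1-/- replicate 1.

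**Figure D4:**
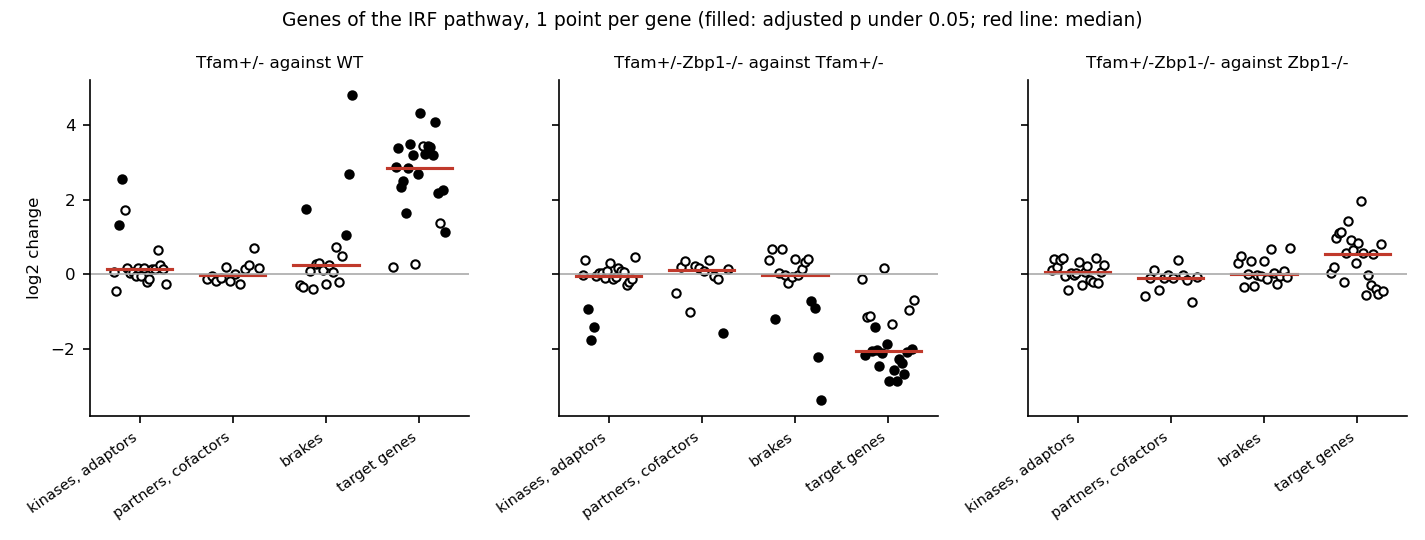
Log2 change (vertical axis) of each tested gene of 4 pathway lists in 3 comparisons, 1 point per gene, filled for a limma adjusted p under 0.05, with the list median as a red line. In Tfam+/- against WT 18 of 22 target genes are filled, and in Tfam+/-Zbp1-/- against Zbp1-/- no point of any list is.

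The genes named as most like each member were among the 3 with the highest Pearson r of log2(normalized count + 1) over the 8 libraries among 13266 other tested genes, given as a description, since the libraries share genotypes and library effects. For Irf7 they were Dhx58 (r = 0.9925), Helz2 (0.9924) and Isg15 (0.9923), and for Irf9 they were Gbp3 (0.9919), Usp18 (0.9918) and Ifit3 (0.991). Irf7 and Irf9 correlated with each other at 0.970. The genes most like Irf3 encode ribosomal proteins, Rps28 (0.9978), Rpl19 (0.9978) and Rps14 (0.9973). Irf1 was most like Clptm1 (0.9923), Nubp1 (0.9885) and Neu1 (0.9865), and correlated with Irf3 at 0.898 and with Irf7 at 0.497. For Irf8 the nearest genes were Tph1 (0.9693) and Lingo2 (0.9668). The nearest genes were Mrgpre (0.9621), Mocos (0.9447) and Nrg1 (0.923) for Irf5 and Iqgap2 (0.9683), Mtm1 (0.956) and Mtmr9 (0.9384) for Irf2.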

How the data were processed

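Total RNA of 8 libraries was sequenced and labels gave the genotype of each library. The authors aligned reads to mm10 with RefSeq genes using STAR in the RNAseq Alignment 2.0.0 software and compared genotypes with RNA-seq Differential Expression 1.0.0, per the series' design text; STAR 2.6.1a and Salmon are named in the submitters' processing notes. The deposited signal per gene is the authors' normalized count, with values at or above 0 that are mostly fractional. No source used here gives the counting, use of strand or scaling. Library totals were 16752835 to 18303036. Taking the most repeated low value as 1 read, 22.2% to 35.0% of low values were whole within 0.01, so reads were not recovered and no count test was run.

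Tests used limma 3.58.1 in R 4.3.3 on log2(normalized count + 1), a scale that understates changes of low genes. The 13267 genes with a mean of at least 10 were fitted with the 4 genotypes together and a mean-variance trend (4 residual and 2.77 prior degrees of freedom). Tests were two-sided and the threshold for a call was an adjusted p (Benjamini-Hochberg) under 0.05 over all genes tested. An exact permutation test of 2 against 2 libraries cannot go below 0.333. The fit was checked on simulated data.

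The members and gene lists were chosen with earlier results of these data known. Named genes were the 8 members, Stat2, up to 4 genes a list called in Tfam+/- against WT with the largest change (otherwise the 2 with the largest change), and the 3 genes most like each member; some genes that this rule names are not reported here. Lengths are merged GENCODE M21 exons. Names of 24407 genes (97.7%) matched RefSeq. Alternatives were other pseudocounts, filters, scaling, priors, fits of the genotypes compared, a replicate block, a term for the 2 libraries that stand apart, and leaving out libraries. For the pathway and marker lists and the other named genes they were added after seeing the data. Replicate numbers did not pair the samples: same-numbered differences correlated at -0.698 to 0.0591 between genotypes.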

Additional observations from a re-analysis of the deposited data

Results flagged for a closer look

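The change with 1 Tfam allele lost differed between cells with and without Zbp1 for Irf7 and Irf9, by a test of the difference itself, the limma interaction. For Irf7 the difference was -3.19 (adjusted p 0.033) and for Irf9 -1.19 (adjusted p 0.030). In Tfam+/-, Irf7 was at 475 and 347 normalized counts and Irf9 at 1016 and 1088, above the other 6 libraries. These values did not change direction without any 1 library, but the calls were lost without several of them.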

How the results depend on the processing

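The 2 called members in Tfam+/- against WT, and the 2 in Tfam+/-Zbp1-/- against Tfam+/-, were called under every other pseudocount, filter, scaling, prior and block tried, but single libraries ended the calls. Counts of members called (limma) went from 2 to 4 with the term shared by 2 libraries and from the other 6 libraries in Tfam+/- against WT, in Tfam+/-Zbp1-/- against Tfam+/- and in the interaction. They went from 0 to 3 and 2 in Zbp1-/- against WT, to 4 and 4 in Tfam+/-Zbp1-/- against WT, and to 1 and 2 against Zbp1-/-. A fit of only these genotypes called 4 in Tfam+/-Zbp1-/- against WT, beside 44.7% of all genes. With any 1 library left out the counts were 0 to 2 in Tfam+/- against WT, 0 to 3 in Tfam+/-Zbp1-/- against Tfam+/-, 0 to 2 in the interaction and 0 elsewhere. The interaction count was 1 (Irf9) with no filter and 0 with the replicate block, which changed no other count. In Tfam+/-Zbp1-/- against WT, where same-numbered replicate differences correlated at -0.366, crossing the numbers in the replicate block, chosen after seeing the data, called 4, beside 46.8% of all genes. Scaling with trimmed means of M-values moved the median of all genes from 0.11, 0.12 and 0.14 to 0.00 in Zbp1-/- against WT, Tfam+/-Zbp1-/- against WT and against Tfam+/-. It put Irf2 at -0.0025 in Tfam+/-Zbp1-/- against WT, turning its direction. The other reversals were of changes that were not called. With the shared term and in the other 6 libraries, in Tfam+/-Zbp1-/- against Tfam+/- Irf1 was at 0.15 and 0.16 and Irf3 at 0.13 and 0.14. Against Zbp1-/- Irf1 was at 0.048 and 0.038, Irf3 at 0.062 and 0.058 and Irf8 at -0.070 and -0.25, and the Irf3 interaction was 0.024 in both. Over left-out libraries Irf2 ranged from -0.019 to 0.40 in Tfam+/- against WT and Irf5 from -0.32 to 0.026 in Tfam+/-Zbp1-/- against WT. In Tfam+/-Zbp1-/- against Tfam+/- the ranges were -0.22 to 0.16 for Irf1, -0.28 to 0.13 for Irf2 and -0.34 to 0.14 for Irf3. Against Zbp1-/- they were -0.30 to 0.038 for Irf1, -0.12 to 0.026 for Irf2, -0.40 to 0.058 for Irf3 and -0.25 to 0.27 for Irf8. The cause of these moves was not tested. Members under about 100 normalized counts (Irf5, Irf7 outside Tfam+/-, Irf8) are the least precise, and with 2 libraries a genotype smaller changes could be missed.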
